A study of Mus musculus with 12 samples.

Results

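The genes described here are 35 enzymes and mitochondrial carriers through which the liver breaks down amino acids and turns the freed nitrogen into urea. They were chosen by symbol, with earlier results of these data known. They cover the urea cycle, the transaminases and the breakdown enzymes of tryptophan, tyrosine, methionine, proline, branched-chain amino acids, lysine and glycine. All 35 were found among the 54532 gene identifiers of the deposited table. Liver RNA came from wild-type mice of the inbred strain C57BL/6J, in 12 sequencing libraries, 3 for each of 4 groups. The groups were a diet labelled CD, which the labels do not expand, a high-fat diet (HFD), the CD diet with 2% dextran sulfate sodium (CD_DSS) and the high-fat diet with 2% DSS (HFD_DSS). DSS is a polysaccharide that damages the lining of the large bowel and serves as a model of colitis. All 4 groups share strain and genotype, and none carries a transgene or deletion per the labels. The sources used here give no route or duration of DSS and no age or sex of the mice. Nothing in the labels says whether the 3 libraries of each group are 3 different mice, and p-values therefore reflect only library-to-library spread, possibly technical. DSS was compared with no DSS within each diet and averaged over diets, the diets were compared at each DSS state, and the DSS effects on both diets were compared with each other.

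Hepatocytes are the main site at which surplus amino acids lose their nitrogen. Transaminases and glutamate dehydrogenase collect amino groups as glutamate, ammonia and aspartate, and the urea cycle, which begins in the mitochondrion and ends in the cytosol, joins them into urea. The carbon skeletons pass down separate routes to glucose, ketone bodies or acetyl-CoA, and many of the enzymes at the head of a route are controlled at the level of their mRNA by glucagon, glucocorticoids and feeding. Urea cycle enzymes are highest in hepatocytes around the portal vein, and glutamine synthetase takes up remaining ammonia around the central vein.

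Expression was measured as FPKM, fragment numbers scaled to exon length and to a depth factor of each library. Levels can therefore be compared between genes per unit of length. Depth was 23.4 to 29.4 M fragments per library, as recovered from the FPKM and the exon lengths. All 35 members are protein-coding, lie on 18 chromosomes and had at least 1 FPKM in every library, from 7.40 (Prodh in HFD_DSS 2) to 1169.7 FPKM (Ass1 in CD 2). They were all among the 10806 genes tested. A gene is called changed below when its p-value from limma, adjusted over those 10806 genes, was under 0.05, and changes are differences in log2(FPKM + 1). The sum of 10 hepatocyte markers was 56010 to 58570 FPKM in CD, 49930 to 55360 in HFD, 61520 to 64810 in CD_DSS and 38580 to 62280 in HFD_DSS, with none of the 10 at 0. Alb, 1 of the 10, weighed most in that sum. Its means were 30379 FPKM in CD, 25452 in HFD, 36791 in CD_DSS and 24285 in HFD_DSS. In whole liver RNA, fewer cells of a type and less RNA per cell cannot be told apart. On the first principal component of all tested genes (43.3% of the variance), 3 libraries lay between the other untreated and the other DSS libraries: HFD 1, CD_DSS 1 and HFD_DSS 2.

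Promoters are printed for Otc, Got1, Hgd, Aass and Gldc, the 5 members that fell with DSS on at least 1 diet and whose window holds no base of an annotated exon. Of the members, 27 matched the RefSeq promoter table (29 windows). Each sequence is the 250 bases before the annotated start, 5′ to 3′ on the strand of the gene, in build GRCm38.p6. The windows are chrX:10252055-10252304, plus strand for Otc, chr19:43524606-43524855, minus strand for Got1, chr16:37579903-37580152, plus strand for Hgd, chr6:23132987-23133236, minus strand for Aass and chr19:30175442-30175691, minus strand for Gldc. Capitals mark letters that matched a searched motif on either strand.
Otc promoter: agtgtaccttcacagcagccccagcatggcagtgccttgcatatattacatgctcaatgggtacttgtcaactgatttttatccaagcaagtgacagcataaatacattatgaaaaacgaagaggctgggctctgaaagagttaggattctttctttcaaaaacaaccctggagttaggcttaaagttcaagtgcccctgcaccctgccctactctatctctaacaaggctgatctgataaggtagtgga
Got1 promoter: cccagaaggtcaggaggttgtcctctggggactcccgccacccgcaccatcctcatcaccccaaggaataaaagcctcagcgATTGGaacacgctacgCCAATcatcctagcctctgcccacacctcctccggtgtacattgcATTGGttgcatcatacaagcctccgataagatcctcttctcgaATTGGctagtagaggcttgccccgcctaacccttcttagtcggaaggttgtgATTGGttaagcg
Hgd promoter: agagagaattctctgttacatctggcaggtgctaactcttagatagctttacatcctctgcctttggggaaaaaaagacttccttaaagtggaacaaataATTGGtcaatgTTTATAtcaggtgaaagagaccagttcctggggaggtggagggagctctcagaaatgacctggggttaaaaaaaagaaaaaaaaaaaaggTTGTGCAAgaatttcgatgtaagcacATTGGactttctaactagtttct
Aass promoter: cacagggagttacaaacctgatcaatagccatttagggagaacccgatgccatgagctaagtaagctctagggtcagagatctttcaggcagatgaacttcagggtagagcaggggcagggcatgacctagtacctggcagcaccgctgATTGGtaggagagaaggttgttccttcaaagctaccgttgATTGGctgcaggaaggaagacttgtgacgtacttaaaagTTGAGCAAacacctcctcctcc
Gldc promoter: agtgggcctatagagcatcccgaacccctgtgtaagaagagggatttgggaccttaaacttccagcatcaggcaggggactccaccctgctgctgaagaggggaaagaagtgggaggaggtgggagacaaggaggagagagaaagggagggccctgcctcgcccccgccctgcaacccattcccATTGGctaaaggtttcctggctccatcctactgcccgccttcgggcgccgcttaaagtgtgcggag
The motifs searched were the TATA box as TATAAA, the CCAAT box, the cyclic AMP response element as TGACGTCA, the glucocorticoid receptor half-site as AGAACA, the HNF4 site as CAAAGTCCA, the STAT site as TTCNNNGAA and the C/EBP site as TTGNGCAA, on both strands, and no 2 matches overlapped in the printed windows. The Got1 window held 5 matches, all CCAAT. Hgd held 1 TATAAA, 2 CCAAT and 1 TTGNGCAA match, Aass held 2 CCAAT and 1 TTGNGCAA match, Gldc held 1 CCAAT match and Otc none. In the 29 member windows CCAAT occurred in 13, against 33.9% of the 32851 windows of the same length in the table. TATAAA occurred in 3 of 29 (12.4% of all windows), AGAACA in 3 (16.1%), TTGNGCAA in 2, those of Aass and Hgd (2.61%), TTCNNNGAA in 1, that of Prodh (7.02%), and TGACGTCA and CAAAGTCCA in none (1.55% and 0.384%). A match describes letters in the window and is not evidence of a bound site.

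With the DSS effect averaged over both diets, 57.1% of the members were called changed, nearly all of them lower with DSS. Of the 35 members, 19 fell, 1 rose (Mat1a, which makes S-adenosylmethionine) and 15 were not called. Over all tested genes, 11.2% were called lower and 8.72% higher in that comparison (1215 and 942 genes). With TPM scaling it was 728 lower and 1016 higher over all genes, and 16 lower and 1 higher among the members; Got2, Ahcy, Aldh4a1 and Dbt lost their call (adjusted p = 0.151, 0.0747, 0.0609 and 0.0604). The falls ranged from −0.19 for the mitochondrial aspartate transaminase Got2 to −0.98 for Cth, which makes cysteine from cystathionine. The members' median change was −0.34 against −0.01 for all tested genes, and 31 of 35 had a negative difference. In 10 members every one of the 6 DSS libraries lay below every one of the 6 libraries without DSS: Otc, Slc25a15, Tdo2, Haao, Hpd, Hgd, Bhmt, Cth, Aass and Gldc. Over all tested genes 3.85% showed that separation.

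Within each diet fewer members passed the test. On the CD diet 10 fell and 0 rose: Ass1, Slc25a15, Got1, Tdo2, Hpd, Hgd, Bhmt, Cth, Prodh and Aass. The share of all tested genes called lower there was 2.79%, and 2.01% were called higher. On the high-fat diet 7 fell and 0 rose: Otc, Ass1, Tdo2, Haao, Hgd, Cth and Gldc, where 3.1% of all tested genes were called lower and 1.73% higher. Ass1, Tdo2, Hgd and Cth were called on both diets. The 3 DSS libraries lay wholly below the 3 untreated ones in 23 members on the CD diet (14.4% of all tested genes) and in 16 on the high-fat diet (14.7%). They lay wholly above in 2 members on the CD diet, Mat1a and Cbs (12.6% of all tested genes), and in 1 on the high-fat diet, Glud1 (12.4%). The counts of calls within a diet depended on single libraries: without CD 1, 2 or 3 the CD count was 3, 2 and 2, and without CD_DSS 1, 2 or 3 it was 13, 2 and 2. Without HFD 1, 2 or 3 the high-fat count was 13, 0 and 2, and without HFD_DSS 1, 2 or 3 it was 1, 8 and 1, whereas the averaged count stayed between 17 and 23. Single calls on the CD diet held in all 15 alternatives for Bhmt and Cth and in 6 to 9 of 15 for the other 8, and those on the high-fat diet in 6 (Tdo2) to 13 (Cth) of 15. Leaving out the 3 intermediate libraries gave 19 members called on the CD diet, 18 on the high-fat diet and 24 on average. Those libraries were picked by their place between the groups in these same data, so the higher counts are no separate support. The share of all tested genes called in that fit is not given here.

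**Figure D1:**
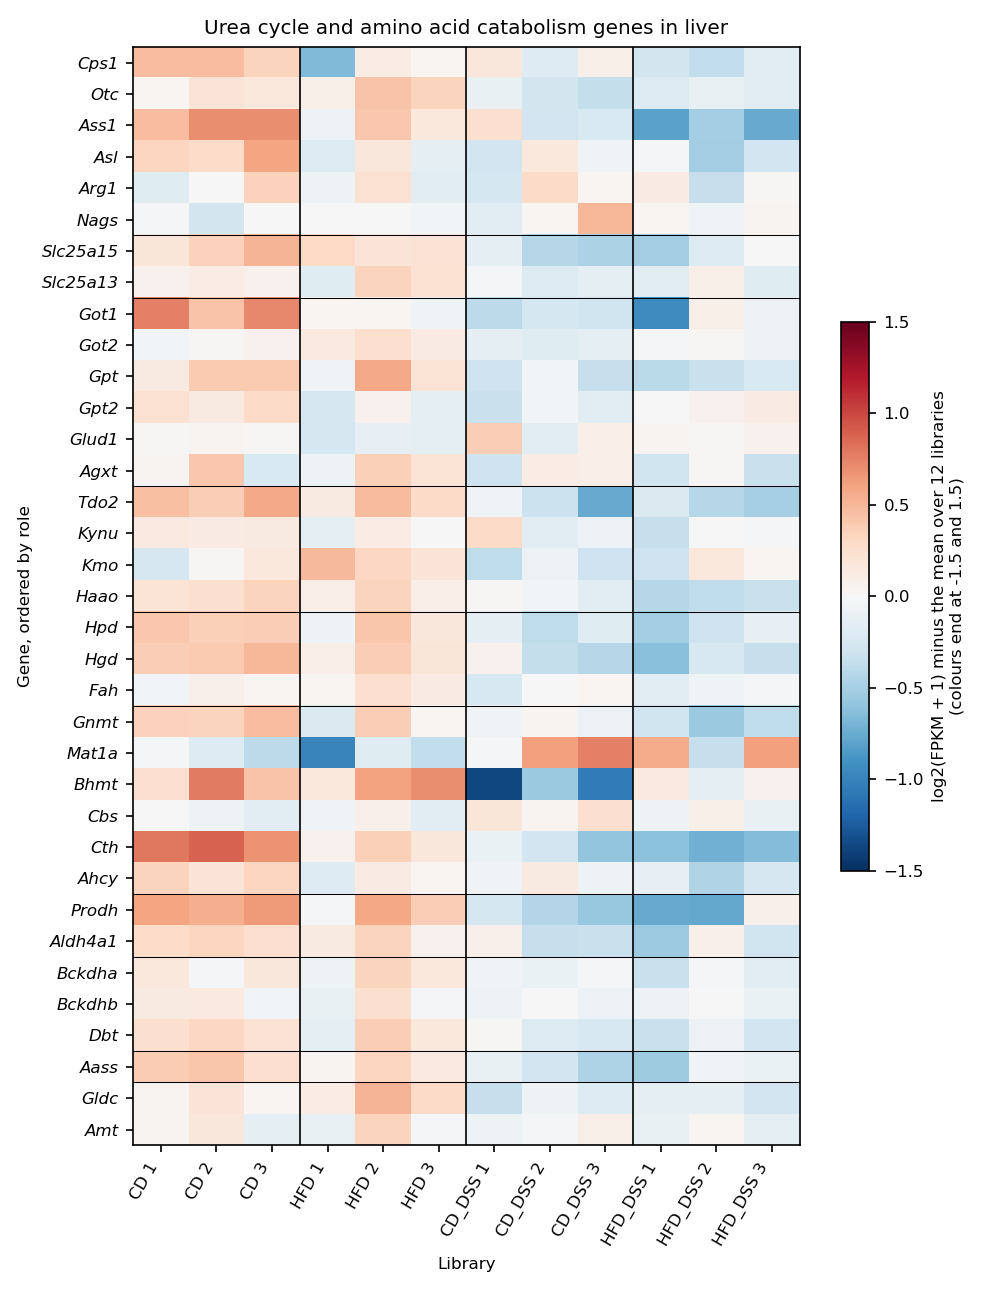
Log2(FPKM + 1) of each of the 35 members (rows, ordered by role) in each of the 12 libraries (columns, by group), as the difference from the member's mean over the 12 libraries. Most rows are above their mean in CD, HFD 2 and HFD 3 and below it in the 6 DSS libraries, Mat1a is high in CD_DSS 2 and 3 and HFD_DSS 1 and 3, and HFD 1 is lower than the other HFD libraries in 26 of 35 members.

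**Figure D2:**
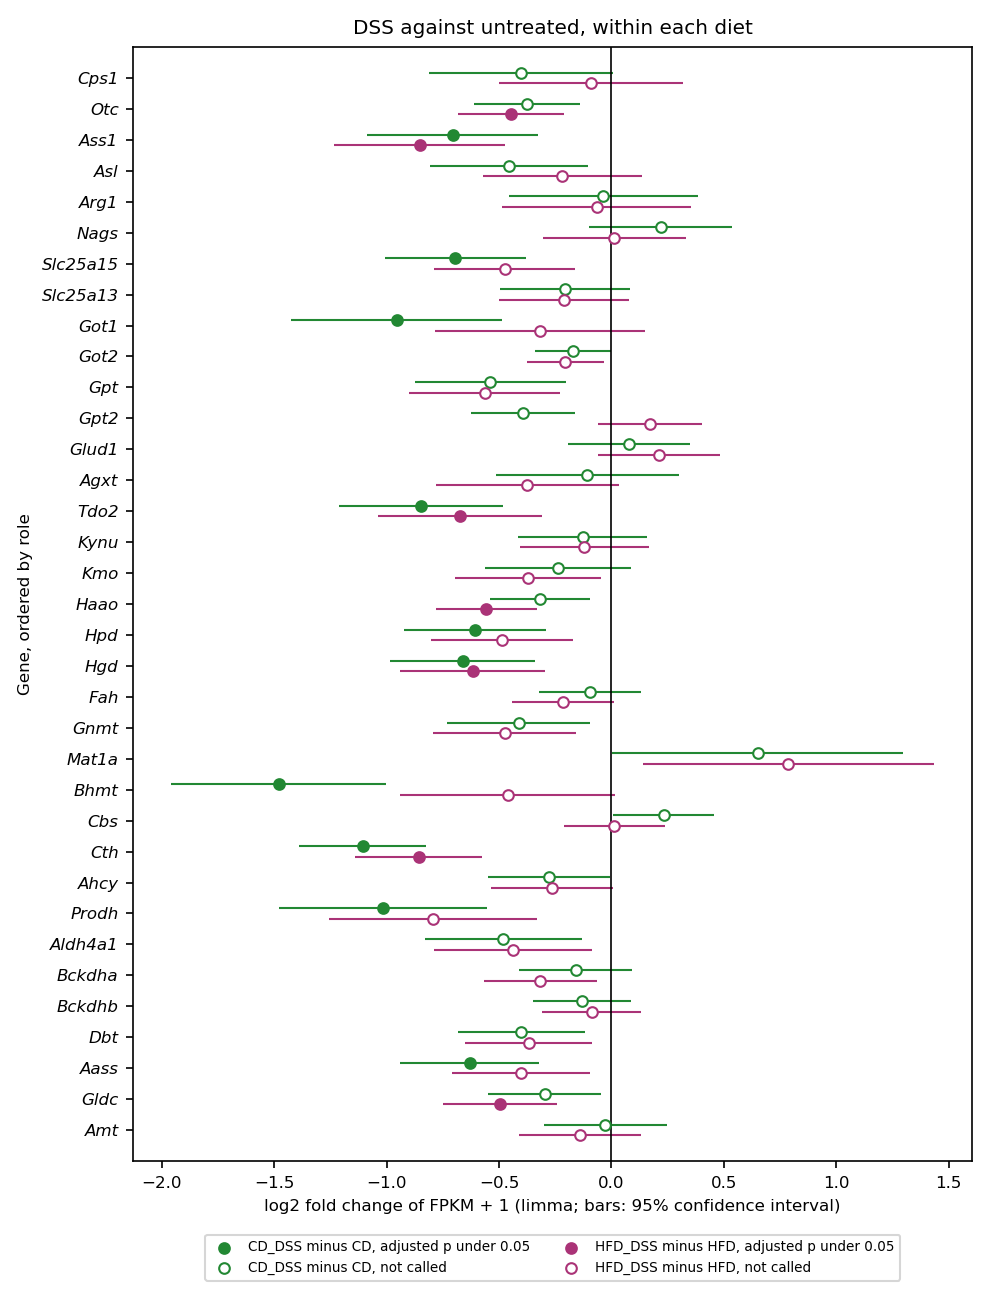
Change with DSS of each of the 35 members on the log2(FPKM + 1) scale with its 95% confidence interval, on the CD diet and on the high-fat diet, with called changes marked by filled points (limma, 10 and 7 members). Most points lie left of 0 on both diets, and the estimates for Bhmt lie farthest apart, at −1.48 and −0.46.

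In the urea cycle, Ass1 and Otc fell and the other 4 enzymes were not called. Ass1, argininosuccinate synthase, brings in the second nitrogen of urea as aspartate (chr2:31470207-31520672, mm10). It had 990.3, 1169.7 and 1169 FPKM in CD 1 to 3 and 857, 590.3 and 615 in CD_DSS 1 to 3. Its values were 678, 955 and 801 in HFD and 411, 503 and 425 in HFD_DSS. All 3 DSS libraries were below all 3 untreated ones on each diet, with HFD_DSS lowest of the groups. Its change was −0.71 (SE 0.17, adjusted p = 0.0449) on the CD diet and −0.85 (SE 0.17, adjusted p = 0.0266) on the high-fat diet, a fold of 1.63 and 1.80 in FPKM + 1. A part of its sequence (38.6% of its exon 50-mers) is also in the processed pseudogene Gm5424, so the split of reads between them is uncertain. Gm5424 had changes of −0.68 and −0.76, and the summed FPKM of both changed by −0.70 and −0.84 in log2. This pseudogene and the copies named below were picked after their values were seen.

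Otc, ornithine transcarbamylase, joins carbamoyl phosphate to ornithine in the mitochondrion (chrX:10252305-10321024). Its levels were 93.1, 105 and 102 FPKM in CD 1 to 3 and 84.4, 75.4 and 71.0 in CD_DSS 1 to 3. In HFD 1 to 3 it had 97.6, 123 and 116, and in HFD_DSS 1 to 3 79.0, 84.7 and 81.5. The DSS libraries were below all untreated ones on both diets. The change was called on the high-fat diet, −0.45 (SE 0.11, adjusted p = 0.0404), and not on the CD diet, −0.38 (SE 0.11, adjusted p = 0.0698); the difference between both effects was −0.07 with a 95% interval of −0.40 to 0.26. Slc25a15, which carries ornithine into the mitochondrion for Otc, had 78.2, 87.8 and 98.7 FPKM in CD 1 to 3 and 62.5, 50.8 and 49.3 in CD_DSS 1 to 3. It had 84.9, 78.8 and 79.9 in HFD and 47.8, 59.4 and 69.1 in HFD_DSS, with no overlap on either diet. It fell by 0.69 on the CD diet (SE 0.14, adjusted p = 0.0253), and its change of −0.47 on the high-fat diet was not called (adjusted p = 0.0778).

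The enzymes on either side of these steps did not pass the test in any of the 6 comparisons. Cps1, which makes carbamoyl phosphate and commits ammonia to the cycle, had 946 ± 49.4 FPKM (SD, n = 3) in CD, 719 ± 90.3 in CD_DSS, 642 ± 172 in HFD and 588 ± 42.5 in HFD_DSS. Its change with DSS was −0.40 on the CD diet (95% interval −0.81 to 0.01) and −0.09 on the high-fat diet (−0.50 to 0.32). Asl, which splits argininosuccinate, ranged from 54.6 to 118 FPKM over the libraries, with changes of −0.46 and −0.22. Arg1, the arginase that releases urea, ranged from 396 to 640.5 and changed by −0.04 (95% interval −0.46 to 0.38) and −0.07 (−0.49 to 0.35). Nags, which makes the activator of Cps1, had 20.0 to 34.9 FPKM and changes of 0.22 and 0.01, and 13.5% of its 50-mers are shared with an antisense gene listed at no more than 0.735 FPKM. Slc25a13, the aspartate and glutamate carrier, had 52.5 to 77.2 FPKM and changes of −0.21 and −0.21. For these 5 genes a p-value above the threshold does not show that the groups were equal.

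Among the transaminases the cytosolic aspartate transaminase Got1 (chr19:43499752-43524605), whose promoter window held 5 CCAAT matches, had the largest fall on the CD diet and on average. It had 114, 90.2 and 111 FPKM in CD 1 to 3 and 50.7, 55.6 and 54.1 in CD_DSS 1 to 3. The HFD libraries had 68.5, 68.4 and 63.7 and the HFD_DSS libraries 34.2, 70.9 and 62.6. All CD_DSS libraries were below all CD libraries, whereas in HFD_DSS the library HFD_DSS 1 was low and HFD_DSS 2 was above all HFD libraries. The change was −0.96 (SE 0.21, adjusted p = 0.0336) on the CD diet and −0.32 (SE 0.21, adjusted p = 0.393) on the high-fat diet. Averaged over diets it was −0.64 (SE 0.15, adjusted p = 0.0146).

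Gpt, the cytosolic alanine transaminase, and Got2 were called only when the diets were averaged. Gpt had 72.6, 86.9 and 86.8 FPKM in CD 1 to 3 and 53.1, 64.2 and 51.6 in CD_DSS 1 to 3. High-fat diet values were 63.3, 98.3 and 76.4 without and 49.6, 51.9 and 56.2 with DSS. Its averaged change was −0.55 (SE 0.11, adjusted p = 0.00660). Got2 had 91.9, 95.4 and 99.1 FPKM in CD 1 to 3 and 85.9, 83.2 and 85.0 in CD_DSS 1 to 3. Its values were 105, 112 and 103 in HFD and 92.5, 95.6 and 89.2 in HFD_DSS. Of the 50-mers of Got2, 25.6% are shared with Got2-ps1, Gm10874 and Gm45760, each listed at no more than 1.87 FPKM. The values for Got2 lay within a narrow span, and its averaged change of −0.19 (SE 0.06, adjusted p = 0.0345) kept its call in 11 of 20 alternatives and lost it when leaving out CD 2, CD 3, HFD 2, CD_DSS 2, CD_DSS 3, HFD_DSS 1 or HFD_DSS 3. Gpt2, the mitochondrial alanine transaminase, was not called: it had 73.7 ± 3.91 FPKM (SD, n = 3) in CD, 56.0 ± 5.77 in CD_DSS, 59.0 ± 6.69 in HFD and 66.2 ± 2.60 in HFD_DSS. Glud1, glutamate dehydrogenase, had 297 to 458 FPKM with changes of 0.08 and 0.21. Of its 50-mers 6.49% are shared with Glud-ps and Gm43444, each listed at no more than 5.00 FPKM. Agxt, which transaminates glyoxylate, had 129.9 to 219 FPKM with changes of −0.11 and −0.37. Neither Glud1 nor Agxt was called.

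In tryptophan breakdown, Tdo2 and Haao fell and Kynu and Kmo were not called. Tdo2, tryptophan dioxygenase, opens the route to kynurenine (chr3:81957090-81976202). Its levels were 416, 393 and 449 FPKM in CD 1 to 3 and 289.9, 242 and 179 in CD_DSS 1 to 3. In HFD 1 to 3 it had 333, 420.3 and 371, and in HFD_DSS 1 to 3 261, 226 and 215. Each DSS library was below every untreated library of either diet. The change was −0.85 (SE 0.17, adjusted p = 0.0216) on the CD diet and −0.68 (SE 0.17, adjusted p = 0.0437) on the high-fat diet, folds of 1.80 and 1.60. Haao, which acts further down the route toward quinolinate and NAD, had 367, 377 and 404 FPKM in CD and 325, 311 and 285 in CD_DSS. On the high-fat diet it had 344, 404 and 342 without and 238, 246 and 254 with DSS, the lowest group. Its change was called on the high-fat diet, −0.56 (SE 0.10, adjusted p = 0.0188), and not on the CD diet, −0.32 (SE 0.10, adjusted p = 0.0963). Kynu, kynureninase, ranged from 23.0 to 36.2 FPKM with changes of −0.13 and −0.12, and Kmo, kynurenine monooxygenase, from 58.8 to 108 with −0.24 and −0.37.

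In tyrosine breakdown, Hpd and Hgd fell while Fah, the last enzyme of the route, was not called (DSS averaged −0.15, 95% interval −0.32 to 0.01, range 191 to 268 FPKM). Hgd, homogentisate dioxygenase (chr16:37580153-37632020), whose promoter window is printed above, fell on both diets. It had 216, 220.4 and 237 FPKM in CD 1 to 3 and 175, 130.4 and 124 in CD_DSS 1 to 3. The HFD libraries had 179, 217 and 189 and the HFD_DSS libraries 108, 142 and 132. All 6 DSS libraries were below all 6 others. The change was −0.66 (SE 0.15, adjusted p = 0.0329) on the CD diet and −0.62 (SE 0.15, adjusted p = 0.0386) on the high-fat diet. Hpd, which makes homogentisate, had 834, 811 and 817 FPKM in CD and 576, 485 and 558 in CD_DSS. It had 598, 844 and 710.5 in HFD and 443, 509 and 579 in HFD_DSS, again with no overlap. It fell on the CD diet, −0.61 (SE 0.14, adjusted p = 0.0397), and its change of −0.49 on the high-fat diet was not called (adjusted p = 0.0743).

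The methionine and sulfur enzymes held the lowest p-values and the only rise. Cth, cystathionine gamma-lyase, makes cysteine and hydrogen sulfide (chr3:157894248-157925077). It had 183, 194 and 169 FPKM in CD 1 to 3 and 98.4, 86.3 and 69.5 in CD_DSS 1 to 3. High-fat diet values were 110.2, 135 and 118 without and 68.4, 63.6 and 66.8 with DSS. Every DSS library was below every untreated library, and HFD_DSS was the lowest group, at 66.3 ± 2.46 FPKM against 182 ± 12.8 in CD (SD, n = 3). The change with DSS was −1.11 (SE 0.13, adjusted p = 0.00343) on the CD diet, a fold of 2.15, and −0.86 (SE 0.13, adjusted p = 0.0110) on the high-fat diet, a fold of 1.81. The CD call held in all 15 alternatives run and the high-fat call in 13 of 15.

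Bhmt, which remethylates homocysteine with betaine (chr13:93616675-93637961), had the largest fall of any member on the CD diet. It had 539.9, 776 and 611 FPKM in CD 1 to 3 and 175, 307 and 218 in CD_DSS 1 to 3. Its values were 504, 691 and 733 in HFD and 502, 409.9 and 474 in HFD_DSS. CD_DSS was lowest, HFD_DSS lay between it and the untreated groups, and CD and HFD overlapped. The change was −1.48 (SE 0.22, adjusted p = 0.00818) on the CD diet, a fold of 2.79, and −0.46 (SE 0.22, adjusted p = 0.226) on the high-fat diet. The CD call held in all 15 alternatives. With 26.1% of its exon 50-mers in Gm5096, Bhmt-ps1 and an antisense gene, its share of reads is uncertain; Gm5096 had changes of −1.49 and −0.49, and the sum of Bhmt, Gm5096 and Bhmt-ps1 changed by −1.49 and −0.47.

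Mat1a, the liver methionine adenosyltransferase, was the only member that rose (chr14:41105035-41124412). It had 669, 599 and 522 FPKM in CD 1 to 3 and 672, 1049 and 1151 in CD_DSS 1 to 3. In HFD 1 to 3 it had 344, 601 and 529, and in HFD_DSS 1 to 3 1004, 537 and 1045. CD_DSS 1 (672) only just exceeded the highest untreated library, CD 1 (669), and HFD_DSS 2 (537) lay among the untreated values. Both are intermediate libraries, and the other 4 DSS libraries were well above every untreated one. The averaged change was 0.72 (SE 0.21, adjusted p = 0.0335), and it was not called on either diet alone (0.65, adjusted p = 0.208, and 0.79, adjusted p = 0.138). The averaged call was lost without CD 2, CD 3, HFD 1, HFD 3, CD_DSS 2, CD_DSS 3, HFD_DSS 1 or HFD_DSS 3, with adjusted p-values up to 0.0966 over its alternatives.

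Gnmt, which spends S-adenosylmethionine on methylating glycine, and Ahcy, which clears the S-adenosylhomocysteine left over, fell on average. Gnmt had 1072, 1062 and 1159 FPKM in CD 1 to 3 and 815, 866 and 792 in CD_DSS 1 to 3. The HFD libraries had 726, 1092 and 861 and the HFD_DSS libraries 686, 571 and 648. Its averaged change was −0.44 (SE 0.10, adjusted p = 0.0133). Ahcy had 635, 574 and 630.3 FPKM in CD 1 to 3 and 487, 552 and 479 in CD_DSS 1 to 3. High-fat diet values were 442, 549.9 and 513 without and 461, 369 and 422 with DSS. Its averaged change was −0.27 (SE 0.09, adjusted p = 0.0489); the call held in 7 of 20 alternatives, and of the 12 fits that left out 1 library only in those without HFD 1 or HFD_DSS 1. Of the 50-mers of Ahcy, 68.7% are shared with Gm4737, Gm9826 and a processed pseudogene listed at 0 in every library, and the sum with Gm4737 and Gm9826 changed by −0.28 and −0.27. Cbs, which starts the path from homocysteine to cysteine ahead of Cth, ranged from 163 to 215 FPKM and was not called (change with DSS 0.23, adjusted p = 0.197, in CD mice; 0.01 in HFD mice).

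Both proline enzymes fell. Prodh, proline dehydrogenase (chr16:18060357-18090203), was the member with the lowest levels. It had 20.5, 19.9 and 21.2 FPKM in CD 1 to 3 and 10.9, 9.53 and 8.65 in CD_DSS 1 to 3. Its values were 13.1, 20.3 and 17.5 in HFD and 7.48, 7.40 and 14.0 in HFD_DSS. HFD_DSS 3 overlapped HFD 1, and all CD_DSS libraries were below all CD libraries. The change was −1.02 (SE 0.21, adjusted p = 0.0261) on the CD diet and −0.79 (SE 0.21, adjusted p = 0.0545) on the high-fat diet. Aldh4a1, the following step, was called on average only. It had 52.3, 54.0 and 51.4 FPKM in CD 1 to 3 and 45.6, 33.7 and 33.9 in CD_DSS 1 to 3. In HFD 1 to 3 it had 47.6, 54.6 and 45.0, and in HFD_DSS 1 to 3 29.2, 45.4 and 34.7. The averaged change was −0.46 (SE 0.11, adjusted p = 0.0167), and 30.0% of its 50-mers are shared with Gm21969, listed at no more than 0.0327 FPKM.

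Aass, which begins lysine breakdown (chr6:23072173-23132986), fell on the CD diet. It had 86.0, 88.4 and 78.7 FPKM in CD 1 to 3 and 61.3, 53.9 and 47.8 in CD_DSS 1 to 3. The HFD libraries had 68.3, 83.1 and 73.0 and the HFD_DSS libraries 45.5, 63.5 and 61.5. No DSS library reached an untreated one. The change was −0.63 (SE 0.14, adjusted p = 0.0329) on the CD diet and −0.40 (SE 0.14, adjusted p = 0.117) on the high-fat diet. Gldc, the decarboxylating unit of the glycine cleavage system (chr19:30098447-30175429), fell on the high-fat diet. It had 70.7, 78.7 and 70.0 FPKM in CD 1 to 3 and 53.7, 65.1 and 59.4 in CD_DSS 1 to 3. High-fat diet values were 74.2, 98.1 and 83.7 without and 61.9, 61.7 and 56.1 with DSS. The DSS libraries were below all untreated ones. The change was −0.50 (SE 0.12, adjusted p = 0.0362) on the high-fat diet and −0.30 (SE 0.12, adjusted p = 0.151) on the CD diet. Amt, a further subunit of that system, had 23.4 to 33.1 FPKM and changes of −0.03 and −0.14, not called.

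Of the 3 branched-chain ketoacid dehydrogenase subunits, Dbt fell on average and Bckdha and Bckdhb were not called. Dbt, the E2 core, had 32.8, 34.3 and 32.2 FPKM in CD 1 to 3 and 27.9, 23.7 and 23.1 in CD_DSS 1 to 3. Its values were 24.8, 35.8 and 31.0 in HFD and 21.6, 25.8 and 22.3 in HFD_DSS. The averaged change was −0.39 (SE 0.09, adjusted p = 0.0145). Bckdha and Bckdhb, which form the E1 unit, ranged from 22.7 to 36.6 and 27.8 to 35.7 FPKM. Their averaged changes were −0.24 (95% interval −0.42 to −0.06) and −0.11 (−0.26 to 0.05). Bckdha overlaps B3gnt8 on the opposite strand over 61.7% of its exon bases, so their reads could not be told apart without strand, but B3gnt8 was listed at no more than 0.319 FPKM.

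**Figure D3:**
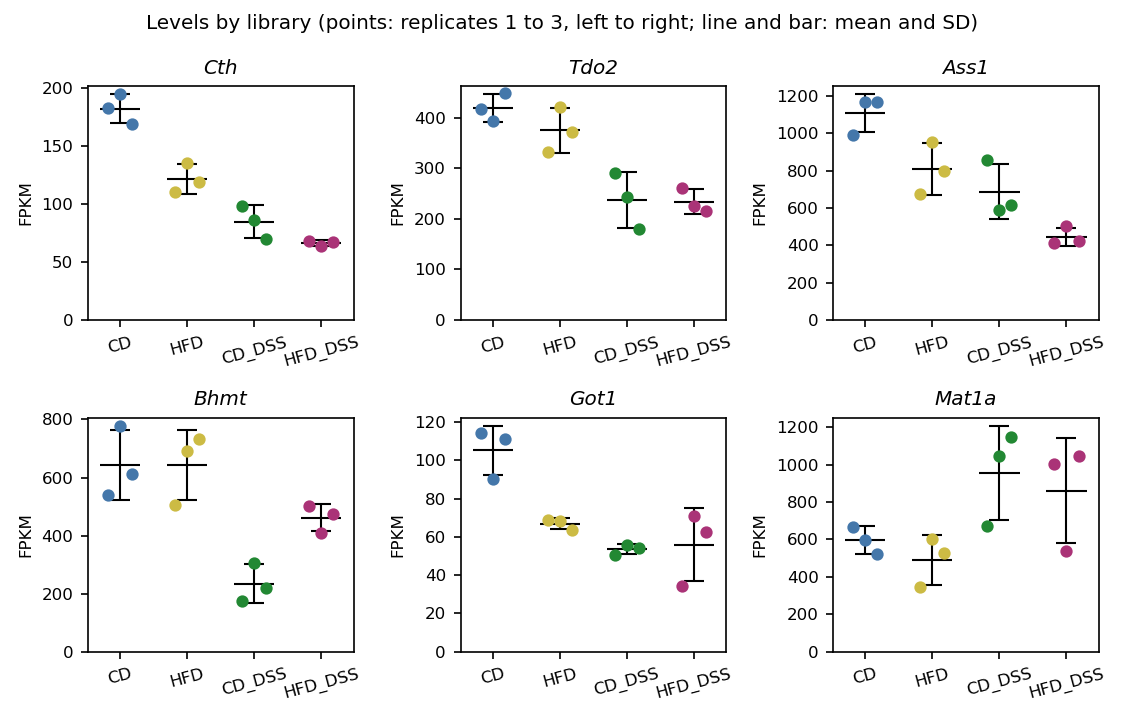
FPKM in each library (points) and group mean ± SD (bars, n = 3) for Cth, Tdo2, Ass1, Bhmt, Got1 and Mat1a. Cth and Tdo2 are lower in every DSS library than in any untreated one, Bhmt is lowest in CD_DSS, and Mat1a in CD_DSS 1 and HFD_DSS 2 lies near the untreated libraries.

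For the high-fat diet without DSS no member was called by limma (0 of 35), against 0.00925% of all tested genes. Voom on the recovered fragments also called 0. That does not show that the 2 diets were equal. Cth was nearest to the threshold, at 121 ± 12.7 FPKM in HFD against 182 ± 12.8 in CD (SD, n = 3), a change of −0.58 (SE 0.13, adjusted p = 0.231). In 9 members all HFD libraries were below all CD libraries: Cps1, Ass1, Asl, Got1, Gpt2, Glud1, Kynu, Cth and Ahcy. Over all tested genes 6.54% showed that separation. In 2 members, Got2 and Kmo, all HFD libraries were above all CD libraries, as in 6.58% of all tested genes. Within HFD the library HFD 1 was the lowest of the 3 in 26 of 35 members, against 41.2% of all tested genes, and its member sum was 7099.7 FPKM against 9519 and 8379 in HFD 2 and 3. This comparison shares the CD libraries with that of DSS on the CD diet, so their estimates are not independent. With DSS, no member was called between the high-fat and the CD diet either (0 of 35 by limma and by voom, against 0.102% of all tested genes).

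The DSS effect was not shown to depend on the diet for any member. The test of the difference between the 2 DSS effects called 0 of 35 members by limma and by voom, against 0.00925% of all tested genes. The members with the lowest limma p-values were Gpt2 and Bhmt, neither of them called. The fall of Bhmt was smaller on the high-fat diet by 1.02 (95% interval 0.34 to 1.69, adjusted p = 0.834). For Gpt2 the difference was 0.56 (0.23 to 0.89, adjusted p = 0.699). Between the 2 DSS groups Bhmt was higher in HFD_DSS than in CD_DSS without overlap, 462 ± 47.1 against 233 ± 67.2 FPKM (SD, n = 3), a change of 1.02 (SE 0.22, adjusted p = 0.110) that was not called. For Got1 the difference was 0.64 (95% interval −0.02 to 1.30), and for Cth, Tdo2, Hgd and Ass1, called on both diets, it was 0.25 (−0.15 to 0.65), 0.17 (−0.35 to 0.69), 0.04 (−0.41 to 0.50) and −0.15 (−0.68 to 0.39).

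In CD_DSS 1 most members lay below the CD libraries, while fewer acute phase genes lay above them than in CD_DSS 2 and 3. Acute phase genes encode plasma proteins that the liver makes in inflammation. In CD_DSS 1, 29 of 35 members lay below all 3 CD libraries, against 26 and 26 in CD_DSS 2 and 3, while 12 of 24 tested acute phase genes lay above all CD libraries, against 24 and 24. In HFD_DSS 2, 21 of 35 members were below all HFD libraries (23 and 24 in HFD_DSS 1 and 3) and 14 of 24 acute phase genes above them (24 and 24). For all tested genes, the share below the untreated libraries of the diet was 28.3 to 35.4% over the 6 DSS libraries and the share above them 24.7 to 33.0%. The median deviation of the acute phase genes from their mean was −0.73 in CD_DSS 1 and 0.95 and 1.07 in CD_DSS 2 and 3, and that of the members was −0.09, −0.16 and −0.16. In HFD 1 the acute phase median was near 0, against −0.96 and −0.94 in HFD 2 and 3, and the member median was −0.06 against 0.33 and 0.13. In HFD_DSS 1 to 3 the acute phase medians were 1.40, 0.22 and 1.54, all above every untreated library, and the member medians −0.27, −0.11 and −0.15.

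**Figure D4:**
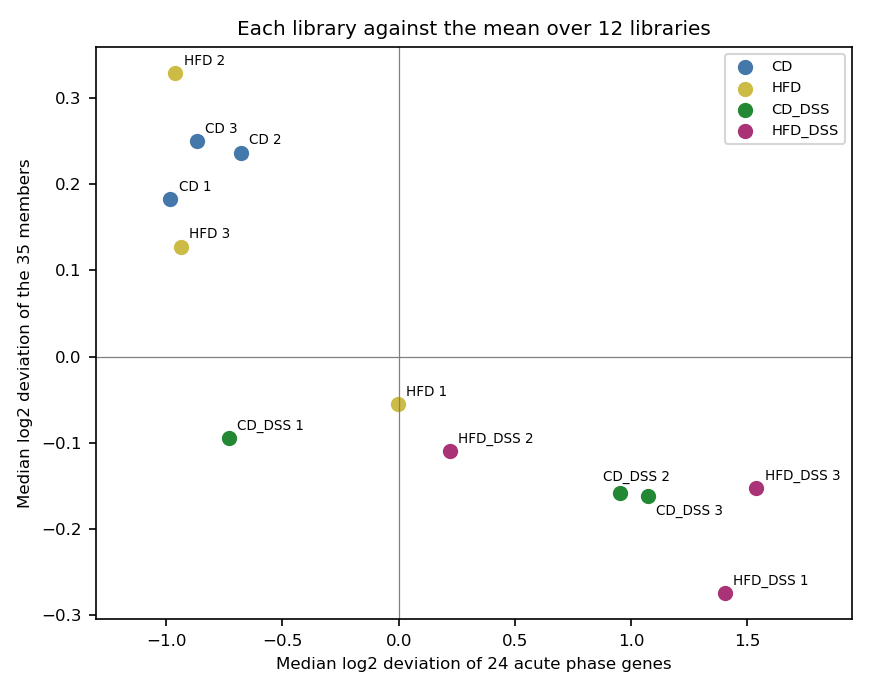
Each point is 1 library: the median deviation of the 35 members (vertical axis) against that of the 24 tested acute phase genes (horizontal axis) from each gene's mean over the 12 libraries, in log2(FPKM + 1), coloured by group. In CD_DSS 1 the member median is −0.09, while the acute phase median (−0.73) is near those of the CD libraries. HFD 1 is the only untreated library with a negative member median (−0.06).

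FPKM are relative values, scaled by a factor of each library that was not its summed fragments. That factor was 0.927 (HFD_DSS 1) to 1.047 (HFD_DSS 2) of the summed fragments recovered here. Summed over the 35 members, FPKM were 9429, 9842 and 9826 in CD, 7099.7, 9519 and 8379 in HFD, 7576, 7681 and 7612 in CD_DSS and 7038, 6428 and 7237 in HFD_DSS. The sum of 25 acute phase genes was 11980 to 14370 FPKM in CD, 11390 to 25130 in HFD, 15390 to 45970 in CD_DSS and 25910 to 59430 in HFD_DSS. Among markers of other cells, the sum of 14 macrophage and Kupffer cell markers was 305.5 to 376.7, 298.7 to 482, 341.8 to 627.2 and 405.8 to 593.7 FPKM in the same order, with 7 of 13 tested higher with DSS on average. The sum of 8 neutrophil markers was 1.85 to 3.60, 1.91 to 24.8, 4.03 to 24.6 and 5.60 to 59.5, with 0 of 4 tested called. Sums for T cell, B cell, sinusoidal endothelial, stellate, cholangiocyte and erythroid markers ran from 0.624 FPKM (B cell) to 701.6 (erythroid). No marker list had a gene at 0 in all 12 libraries. On average 1 of 1 tested T cell and 1 of 5 erythroid markers were lower with DSS. Of the endothelial, stellate and cholangiocyte markers 2 of 9, 1 of 10 and 1 of 3 were higher, and no B cell marker was tested. The T cell marker, Cd4, reached 1 FPKM only in untreated libraries. Of the 10 hepatocyte markers 3 were lower and 2 higher on average. Over all tested genes, 11.2% were called lower and 8.72% higher on average. The part of these cell types and of the acute phase genes in the members' changes was not tested.

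Other enzymes of the pathway fell or were not called. Of 72 tested further enzymes of amino acid breakdown and adjoining steps, 19 fell on the CD diet, 16 on the high-fat diet and 40 on average. In these 3 comparisons 0 rose. Of all tested genes 2.79%, 3.1% and 11.2% were called lower in these comparisons. The medians of the 72 were −0.32, −0.33 and −0.31, against −0.01 for all tested genes in each. Among the most lowered were Etnppl, which breaks down phosphoethanolamine, at −1.83 on the CD diet and −2.12 on the high-fat diet; Acmsd, a branch point of the kynurenine route, at −1.33 and −0.72; and Aadat, which transaminates aminoadipate and kynurenine, at −1.04 and −0.92. Also among the largest on the CD diet were Tat, the first enzyme of tyrosine breakdown (−1.23, adjusted p = 0.0225) and Ethe1, which oxidises sulfide sulfur (−1.19). On the high-fat diet they were Hal, the first enzyme of histidine breakdown (−1.20), Afmid, which acts after Tdo2 (−0.85), and Mpst, a sulfurtransferase (−0.65).

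Genes that handle ammonia and glutamine fell as well. Glul, glutamine synthetase, had 295, 243 and 242 FPKM in CD, 38.9, 17.6 and 25.0 in CD_DSS, 253, 243 and 284 in HFD and 32.2, 36.9 and 92.0 in HFD_DSS. It fell by 3.27 on the CD diet (adjusted p = 0.00272) and by 2.41 on the high-fat diet (adjusted p = 0.0110), and every DSS library was below every untreated one. Of the 7 tested genes of this list, 5 fell on the CD diet, 4 on the high-fat diet and 5 on average, and 0 rose, beside the 2.79%, 3.1% and 11.2% of all tested genes called lower. The other 4 were Oat, Gls2, Car5a and Rhbg. Oat, which links ornithine to glutamate, changed by −1.72 and −0.99, the latter not called by limma (adjusted p = 0.101). Gls2, the liver glutaminase, changed by −0.63 and −1.06, and Car5a, which supplies bicarbonate to Cps1, by −0.91 and −0.79. Rhbg, an ammonia channel, changed by −0.83 and −0.79. Rhbg reached 1 FPKM only in untreated libraries, so it was tested only through groups where it is high, and its fall is no separate support. Its means were 1.44 FPKM in CD, 0.375 in CD_DSS, 0.976 in HFD and 0.132 in HFD_DSS. Of 19 tested amino acid transporters, 1 rose on the CD diet (Slc3a1, 1.11), none changed on the high-fat diet, and 3 fell and 2 rose on average. Those averaged counts are close to the shares of all tested genes, 11.2% lower and 8.72% higher. Of 4 tested enzymes of amino acid synthesis, Asns, asparagine synthetase, rose on the high-fat diet (1.42, adjusted p = 0.0260), and the other 3 were not called, where 1.73% of all tested genes were called higher.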

How the data were processed

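The values are FPKM per gene and library, deposited by the authors without pooling; per the labels' protocols, RNA came from a Qiagen column kit and the SMARTer kit for mRNA served for library construction. Per the submitters' processing notes the build is mm10. The sources used here name no aligner or counter. Of 54532 identifiers, 54495 had a symbol and exon length in the GENCODE M21 annotation of mm10. FPKM times exon length gave fragments: 97.0 to 97.3% of values under 500 fragments were within 0.02 of a whole number. Genes reaching 1 FPKM in 3 or more of 12 libraries were tested on log2(FPKM + 1), which understates changes of low genes, with limma 3.58.1 in R 4.3.3 (4 group means over all 12 libraries, empirical Bayes, variance trend, two-sided), adjusted over 10806 genes by Benjamini-Hochberg at 0.05. Alternatives were a pseudocount of 0.1, no filter, TPM and median-of-ratios scaling, and the compared groups alone. Library weights, a replicate block and leaving out each library were further ones. Voom on recovered fragments and leaving out 3 intermediate libraries were added. Median-of-ratios scaling gave member medians of −0.3763 (CD diet) and −0.3687 (high-fat diet) for DSS, against −0.3764 and −0.3688 in the main fit. It changed next to nothing, so a call that held in it has no separate support from it. Every member is accounted for, with values per library for those called in at least 1 comparison; of each list up to 6 called genes per comparison may be named, those changed most; 1 such gene is not reported here. Members and lists were chosen with earlier results of these data known. Sequences shared with other genes are 50-mers of the exons; promoters come from RefSeq.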

Additional observations from a re-analysis of the deposited data

How the results depend on the processing

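With 3 libraries a group, the number of members called within a diet moved with most settings. Of 655 values of single members under an alternative, 513 kept the call, 142 lost it and 0 reversed direction. These values cover only the 37 results called in the main fit, refitted on largely the same libraries. A reversal was therefore hardly possible, and its absence is no separate support. For DSS on the CD diet, 10 members called became 2 with no filter on low values, 5 with TPM scaling, 6 in a fit of the 2 groups alone, 20 with weighted libraries and 19 without the 3 intermediate libraries. For DSS on the high-fat diet, 7 became 2, 2, 1, 21 and 18 in the same order. Leaving out 1 library in turn gave 2 to 13 members on the CD diet and 0 to 13 on the high-fat diet. Weighted libraries called 1 member for the high-fat diet without DSS. The averaged DSS count (20) stayed between 17 and 28 under all alternatives, and both comparisons at 0, the diet with DSS and the difference between DSS effects, stayed at 0. With the replicate number as a block, 4 members were called on each diet. Same-numbered libraries deviated together in 5 of 18 pairs (correlations −0.36 to 0.26, over 0.1 in those 5) and 2 libraries correlated best with their own number, so the numbers were not taken to pair the libraries. Over all genes, TPM scaling turned the split of lower and higher calls from 302 and 217 to 145 and 239 on the CD diet, from 335 and 187 to 122 and 245 on the high-fat diet, and from 1215 and 942 to 728 and 1016 on average. The cause of these shifts was not tested. The alternatives without the 3 intermediate libraries and with voom on recovered fragments were chosen after seeing the data.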

Other observations

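Among 21 transcription factors and other regulators of amino acid catabolism, 3 were lower and 2 higher with DSS on average, and 16 were not called. Over all tested genes 11.2% were called lower and 8.72% higher, shares close to those of this list. Stat3, a mediator of the acute phase response, rose by 0.85 on the CD diet and 0.60 on the high-fat diet, and Hnf4a, a main transcription factor of hepatocytes, rose by 0.48 and 0.59. Tsc22d3, a known glucocorticoid target, fell by 1.35 on the CD diet (adjusted p = 0.0210 by limma) and by 1.06 on average. On average the mitochondrial deacylases Sirt3 (−0.30) and Sirt5 (−0.25) were lower too. Their part in the members' changes was not tested.

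Both zones of the liver lobule were among the genes lowered on average. Of 13 tested periportal hepatocyte genes outside the members, 7 fell and 1, Ctsc, rose (0.68); the falls were led by Cyp2f2 (−0.93) and Gls2 (−0.84). Of 13 tested pericentral genes, 9 fell and none rose, led by Glul (−2.84), Cyp1a2 (−1.75) and Oat (−1.35). Rhbg, also on the pericentral list, reached 1 FPKM only in untreated libraries. Over all tested genes 11.2% fell and 8.72% rose. The zone lists share genes with those described before: Hal, Sds and Gls2 of the periportal list and Glul, Oat, Rhbg, Slc1a2 and Tbx3 of the pericentral list also stand in the ammonia, breakdown, transporter or regulator lists. The medians of the 2 lists were −0.48 and −0.73, against −0.01 for all tested genes. Whether the lists differ was not tested.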
